A study of Homo sapiens with 14 samples.

Results

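The HOXA cluster genes HOXA3, HOXA5, HOXA6, HOXA7, HOXA9, HOXA10 and HOXA11, together with MEIS1 and PBX3, form the homeobox programme that KMT2A fusion proteins keep active in leukaemia. These 9 genes were taken by name from a table of 39293 gene identifiers, and each name matched 1 identifier. All 9 passed the filter on low counts, as did 15756 genes in all. The libraries came from MOLM14, an established acute myeloid leukaemia cell line that carries a KMT2A-MLLT3 fusion and an internal tandem duplication of FLT3.

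RNA was sequenced from 14 cultures of this line. FGF2 early cells (n = 4) were early gilteritinib-resistant lines grown with 10 ng/mL of the growth factor FGF2, and FL early cells (n = 4) were early resistant lines grown with 10 ng/mL of FLT3 ligand (FL). Both were exposed to 100 nM gilteritinib, a FLT3 kinase inhibitor, for 48 h before RNA was extracted, and each library is a flask of its own. The acute libraries (n = 3) came from MOLM14 cells given 100 nM gilteritinib for 48 h, 1 with the drug alone, 1 with FGF2 added and 1 with FL added, and are treated as 3 samples of 1 arm. The parental libraries (n = 3) were untreated MOLM14. All 14 share the line's fusion and its FLT3 duplication. The labels do not say that the parental cultures or the flasks were derived independently, so the p-values below measure only the spread between these samples.

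HOX proteins are homeodomain transcription factors, and the HOXA genes lie side by side in the order of their numbers. KMT2A fusions bind near the start sites of these genes and recruit elongation and histone-methylating enzymes such as DOT1L, which holds the genes on. MEIS1 and PBX3 belong to the TALE homeodomain family and bind DNA as partners of HOXA9, and forced HOXA9 with MEIS1 is enough to cause myeloid leukaemia in mice.

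KMT2A carries a CXXC domain that binds unmethylated CpG dinucleotides, so the CpG content of the start sites is shown for 4 genes whose levels the results turn on. The 250 bases before each RefSeq start site (build GRCh38.p14) are printed 5′ to 3′ on the strand of the gene, with CpG dinucleotides in capitals. The windows are chr7:27156676-27156925 (minus strand) for HOXA7, chr7:27165538-27165787 (minus strand) for HOXA9, chr2:66434875-66435124 (plus strand) for MEIS1 and chr9:125747933-125748182 (plus strand) for PBX3.
HOXA7: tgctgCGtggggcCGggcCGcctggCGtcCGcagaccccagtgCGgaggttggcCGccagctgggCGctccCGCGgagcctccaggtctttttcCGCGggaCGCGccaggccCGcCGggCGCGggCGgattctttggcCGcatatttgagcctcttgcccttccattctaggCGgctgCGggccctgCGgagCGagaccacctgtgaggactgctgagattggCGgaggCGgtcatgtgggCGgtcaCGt
HOXA9: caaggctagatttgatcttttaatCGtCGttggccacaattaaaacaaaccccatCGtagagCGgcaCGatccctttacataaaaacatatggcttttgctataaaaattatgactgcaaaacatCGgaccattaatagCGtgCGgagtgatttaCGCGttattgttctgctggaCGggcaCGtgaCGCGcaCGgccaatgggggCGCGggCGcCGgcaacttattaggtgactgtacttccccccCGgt
MEIS1: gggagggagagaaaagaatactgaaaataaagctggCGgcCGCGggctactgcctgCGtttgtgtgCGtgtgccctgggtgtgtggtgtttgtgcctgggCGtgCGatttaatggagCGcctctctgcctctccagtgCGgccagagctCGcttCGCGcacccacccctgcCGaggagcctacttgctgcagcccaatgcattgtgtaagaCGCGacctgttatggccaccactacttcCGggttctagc
PBX3: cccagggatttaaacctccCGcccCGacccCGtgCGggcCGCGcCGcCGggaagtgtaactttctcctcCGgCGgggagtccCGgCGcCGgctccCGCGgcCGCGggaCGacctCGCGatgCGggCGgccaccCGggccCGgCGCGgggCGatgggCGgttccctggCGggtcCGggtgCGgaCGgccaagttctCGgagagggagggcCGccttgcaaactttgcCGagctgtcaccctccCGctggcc
The windows held 28 CpGs at HOXA7, 20 at HOXA9, 16 at MEIS1 and 36 at PBX3, against a median of 11 over the 35116 RefSeq windows of the same length. At least as many CpGs were found in 15.9% of all windows for HOXA7, 32.4% for HOXA9, 41% for MEIS1 and 4.85% for PBX3. The letters TGACAG, the core that MEIS proteins bind, were searched on both strands and occurred in the PBX3 window and in no window of the other 7 genes matched, against 13.0% of all windows. The letters TGATTNAT, a PBX-HOX site, occurred in no window of these 8 genes and in 2.48% of all windows. HOXA5 was not matched in the promoter table. These matches are descriptions of the sequence and say nothing of binding in these cells.

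Library totals ran between 25723575 and 33075041 estimated counts, and levels are given as CPM (each count scaled to a common library size with TMM factors). The lowest count behind any member's value was 47.7, for HOXA6 in FL early replicate 4, and the highest was 3972, for HOXA9. The share of ribosomal protein genes was 16.3% to 19.7% of counts in the acute arm, against 10.8% to 13.0% in the other 3 arms. The line's myeloid character showed in the marker list (CD33 49.6 to 84.4 CPM, LYZ 66.5 to 908 CPM), although CD14 stayed at or under 0.820 CPM. In parental cells 2 of the 14 myeloid markers, CD14 among them, stayed under 1 CPM in every library. All 5 erythroid markers were listed at 0, T cell markers summed to 1.33 CPM or less, and of the 5 B cell markers only PAX5 (39.3 to 82.6 CPM) exceeded 1 CPM. Of 5 endothelial markers PECAM1 (56.2 to 269 CPM), which monocytes also carry, was the main contributor, KRT8 and KRT18 were the 2 epithelial markers above 1 CPM, and fibroblast markers summed to 3.53 CPM or less. FL early replicates 1 and 4 stood furthest from their own arm in comparisons of all counts, and FL early replicate 4 stands apart from the other FL early libraries for most members.

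The programme was expressed in every library, and its members differed widely in level. Per kilobase of the longest annotated transcript, parental cells had 42.5 ± 1.02 CPM of HOXA9 and 40.7 ± 0.61 of HOXA10 (mean ± SD, n = 3), with non-overlapping ranges. PBX3 (21.8 ± 0.591) and HOXA11 (20.6 ± 0.625) followed with overlapping ranges. MEIS1 (8.34 ± 0.118), HOXA6 (8.16 ± 1.47), HOXA5 (8.15 ± 1.21) and HOXA7 (8.1 ± 1.41) could not be ordered beyond their spread, and HOXA3 (3.4 ± 0.241) was lowest. HOXA9 and HOXA10 remained the 2 highest in all 4 arms, with 37.8 ± 2.79 and 38.4 ± 1.09 CPM per kilobase in FGF2 early cells, 40.2 ± 2.94 and 33.8 ± 3.42 in FL early cells and 65.6 ± 6.41 and 48.7 ± 1.22 in acute cells. The order depends on the length used, because the median transcript of MEIS1 is far shorter than its longest and would place MEIS1 second in parental cells at 75.6 CPM per kilobase. Because these are bulk libraries, fewer cells expressing a gene and less RNA per cell cannot be told apart.

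**Figure D1:**
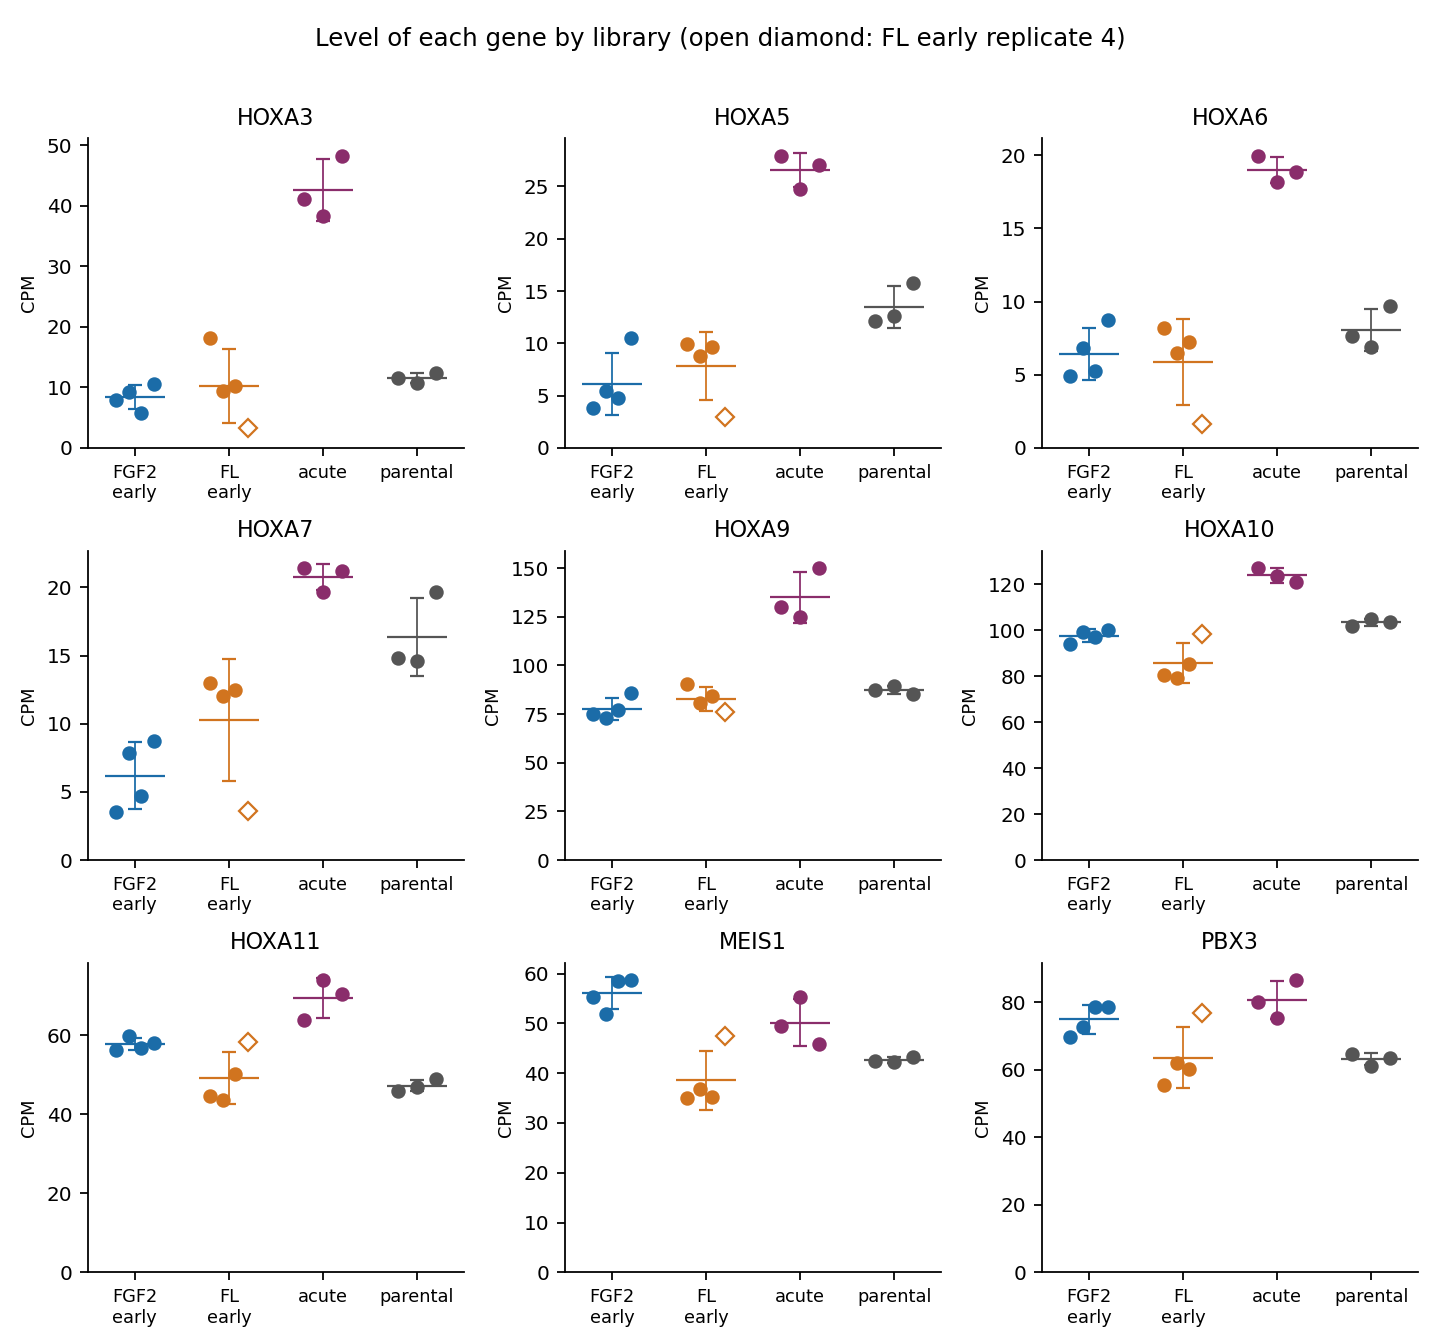
Each panel plots 1 gene's level in CPM (vertical axis from 0) in the 14 libraries by arm, with FGF2 early and FL early cells (n = 4 each), acute cells and parental cells (n = 3 each). Points are libraries, horizontal bars are means and error bars are SD, and FL early replicate 4 is an open diamond that lies lowest of its arm for HOXA3, HOXA5, HOXA6 and HOXA7 and highest for HOXA10, HOXA11, MEIS1 and PBX3.

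The comparison of FGF2 early with parental cells asks how the programme stands in cells that grow under drug with FGF2. MEIS1 and HOXA11 rose, HOXA5 and HOXA7 fell, and the other 5 genes did not pass the test, so that 2 of 9 members were called higher and 2 lower at an adjusted p under 0.05. Over all genes tested, 13.3% were called higher and 17.1% lower, so the members' shares lie near or somewhat above the background. The median change of the 9 was -0.17 on the log2 scale, against 0.014 over all genes tested.

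MEIS1, the TALE partner of HOXA9, had 55.3, 51.9, 58.4 and 58.7 CPM in FGF2 early replicates 1 to 4, against 42.4, 42.2 and 43.3 CPM in parental cells. Every FGF2 early library lay above every parental library. The log2 fold change was 0.39 ± 0.10 (SE), with an adjusted p of 0.0113 by edgeR's quasi-likelihood test with Benjamini-Hochberg adjustment, and the call held in all 18 alternatives run for it. HOXA11, a posterior HOXA gene, averaged 57.7 ± 1.56 CPM in FGF2 early cells and 47.2 ± 1.43 CPM in parental cells (SD, n = 4 and 3), also without overlap. Its log2 fold change was 0.29 ± 0.09 (edgeR adjusted p = 0.0285), and the adjusted p lay between 0.0512 and 0.10 when FGF2 early replicate 2 or 4 or any 1 parental library was left out. PBX3, which stabilises HOXA9 and MEIS1 on DNA, averaged 75 ± 4.39 CPM in FGF2 early cells and 63.2 ± 1.72 CPM in parental cells. Its groups did not overlap, but the log2 difference of 0.25 ± 0.10 missed the threshold (edgeR adjusted p = 0.0664, 95% interval 0.04 to 0.46). PBX3 was called in 3 of 18 alternatives. These were total counts alone (edgeR adjusted p = 0.0270), TMM without ribosomal protein and mitochondrial genes (0.0481) and these 2 arms fitted alone (0.0065).

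HOXA7 had 3.55, 7.83, 4.69 and 8.75 CPM in FGF2 early cells, against 14.8, 14.6 and 19.6 CPM in parental cells. All 4 FGF2 early libraries lay below all 3 parental ones, with replicates 1 and 3 the lowest. The log2 fold change was -1.40 ± 0.37 (edgeR adjusted p = 0.0107), called in all 18 alternatives. HOXA5, a HOX gene tied to myeloid over erythroid fate, had 3.84, 5.4, 4.76 and 10.5 CPM in FGF2 early cells, against 12.1, 12.6 and 15.8 CPM in parental cells. The groups did not overlap, although FGF2 early replicate 4 came close to the lowest parental library. The log2 fold change was -1.14 ± 0.36 (edgeR adjusted p = 0.0285), but the adjusted p passed 0.05 without any 1 library other than FGF2 early replicate 4, from 0.0545 to 0.0904. The HOXA5 call was also lost with no low-count filter (edgeR adjusted p = 0.0615).

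HOXA3 and HOXA6 had wide intervals. HOXA3 averaged 8.37 ± 1.99 CPM in FGF2 early cells and 11.5 ± 0.817 CPM in parental cells, with a log2 difference of -0.46 ± 0.37 (95% interval -1.26 to 0.33). HOXA6 averaged 6.43 ± 1.76 CPM in FGF2 early cells and 8.07 ± 1.45 CPM in parental cells, with a log2 difference of -0.33 ± 0.37 (95% interval -1.12 to 0.46). HOXA3 transcripts in the annotation span neighbouring HOXA genes and the strand setting of the counting is not given in the sources used here, so its values are uncertain. HOXA9, the member most tied to self-renewal, averaged 77.8 ± 5.74 CPM in FGF2 early cells and 87.5 ± 2.1 CPM in parental cells, a log2 difference of -0.17 ± 0.08 (edgeR adjusted p = 0.126, 95% interval -0.34 to 0.00). HOXA10 averaged 97.6 ± 2.76 CPM in FGF2 early cells and 103 ± 1.55 CPM in parental cells, a log2 difference of -0.08 ± 0.07 (edgeR adjusted p = 0.387).

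The comparison of FL early with parental cells asks the same for cells grown with FLT3 ligand. HOXA10 fell, and the other 8 members did not pass the test. The background was 10.9% called higher and 9.76% called lower of all genes tested, and 0 and 1 of the 9 members is near it. At an unadjusted p under 0.05, HOXA5 and HOXA10 were lower and no member was higher. HOXA10, a HOX gene of immature myeloid cells, had 80.5, 79.3, 85.1 and 98.3 CPM in FL early cells, against 102, 105 and 104 CPM in parental cells. Replicates 1 to 3 were low and replicate 4 came near the parental range, which none of the 4 entered. The log2 fold change was -0.27 ± 0.07 (edgeR adjusted p = 0.0161), with an adjusted p of 0.0668 without parental replicate 2 and 0.0724 when these 2 arms alone were fitted.

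MEIS1 had 34.9, 36.7, 35.3 and 47.4 CPM in FL early cells, against 42.4, 42.2 and 43.3 CPM in parental cells. Replicates 1 to 3 lay below every parental library and replicate 4 lay above all of them. The log2 difference was -0.14 ± 0.10 with all 4 libraries (edgeR adjusted p = 0.356) and -0.26 without replicate 4 (edgeR adjusted p = 0.0364). HOXA5 averaged 7.83 ± 3.29 CPM in FL early cells and 13.5 ± 2.0 CPM in parental cells, a log2 difference of -0.79 ± 0.36 (edgeR adjusted p = 0.138). HOXA7 averaged 10.3 ± 4.47 CPM in FL early cells and 16.4 ± 2.85 CPM in parental cells, a log2 difference of -0.67 ± 0.36 (edgeR adjusted p = 0.207). For both genes every FL early library lay below every parental one. Without FL early replicate 4 the differences were -0.51 for HOXA5 and -0.39 for HOXA7 (edgeR adjusted p = 0.201 and 0.303). The log2 differences of HOXA3 (-0.17 ± 0.37), HOXA6 (-0.46 ± 0.37), HOXA9 (-0.08 ± 0.08), HOXA11 (0.06 ± 0.09) and PBX3 (0.01 ± 0.10) had intervals that included 0. Without replicate 4 they were 0.12 for HOXA3, -0.14 for HOXA6, -0.040 for HOXA9, -0.033 for HOXA11 and -0.090 for PBX3, and none passed the test. The comparisons of FGF2 early and FL early cells with parental cells share the same 3 parental libraries. The median change of the 9 was -0.17, against 0.0089 over all genes tested. The 14 myeloid markers summed to 1789 to 2401 CPM in FL early cells and 1061 to 1094 CPM in parental cells, with 10 called higher and 0 lower, and their part in these differences was not tested.

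**Figure D2:**
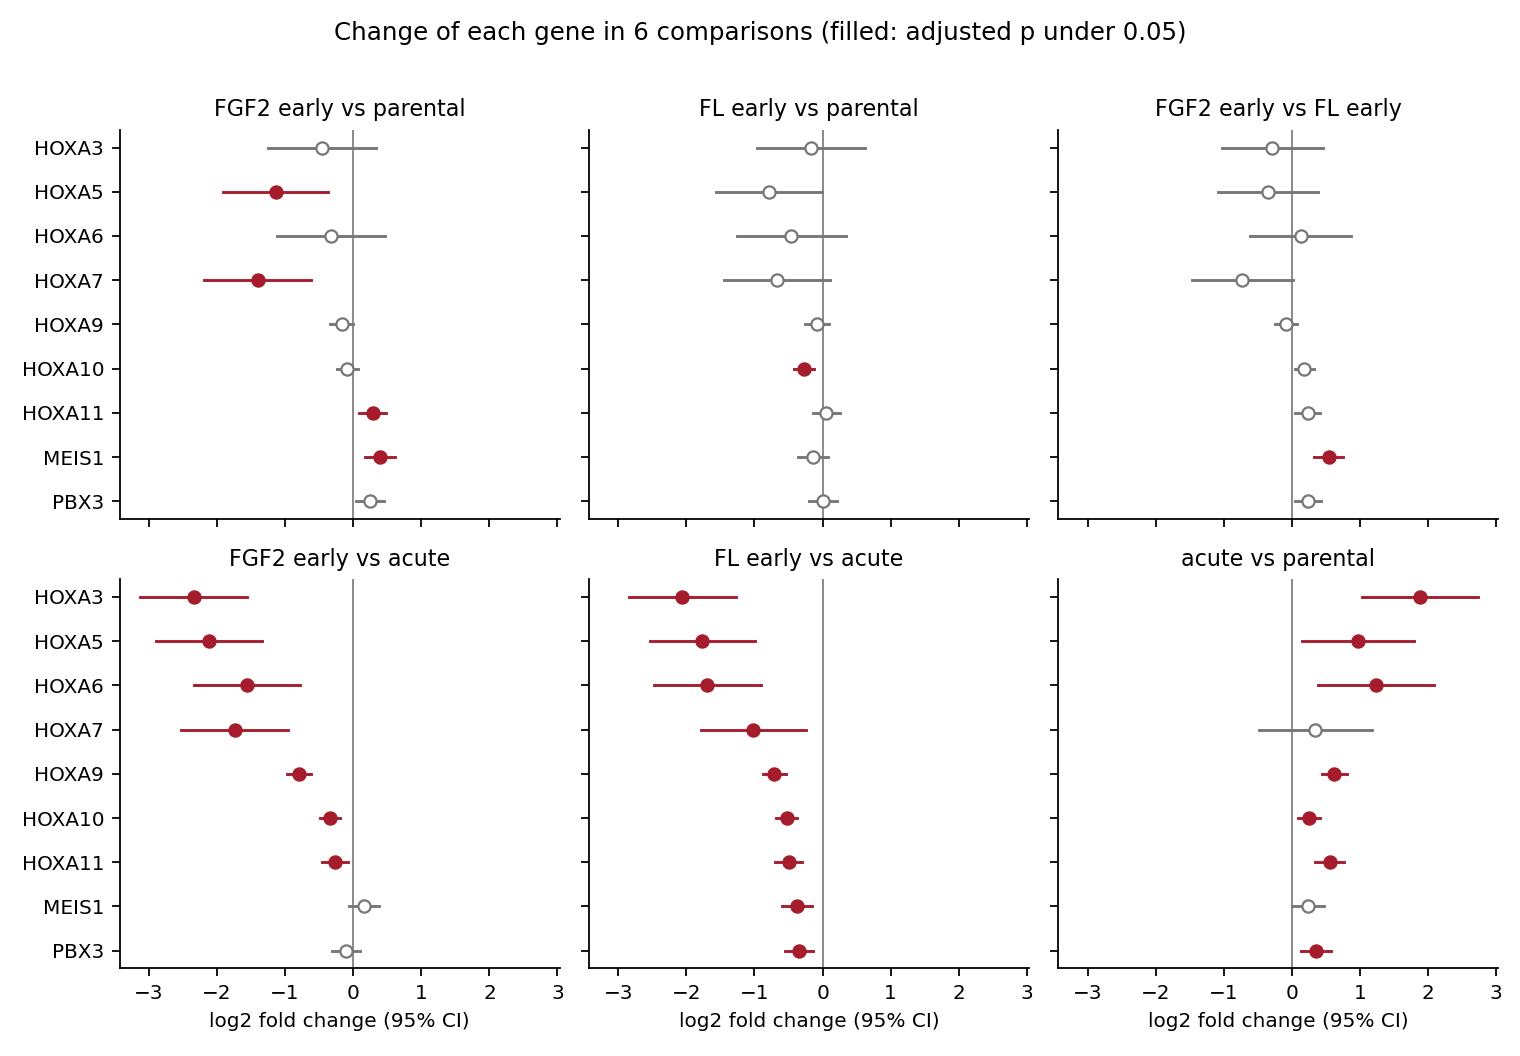
Each panel shows the log2 fold change (horizontal axis, points) of the 9 genes with its 95% confidence interval (lines) in 1 comparison of the joint edgeR fit, the first-named group over the second. Filled red points had an adjusted p under 0.05, which holds for 9 of 9 genes between FL early and acute cells, for 7 of 9 between FGF2 early and acute cells and for 1 of 9 between FGF2 early and FL early cells.

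Set directly against each other, FGF2 early and FL early cells differed in MEIS1. MEIS1 averaged 56.1 ± 3.19 CPM in FGF2 early cells and 38.6 ± 5.95 CPM in FL early cells (SD, n = 4 each), a log2 fold change of 0.54 ± 0.10 (edgeR adjusted p = 0.00261). The 4 FGF2 early libraries all lay above the 4 FL early ones, and the call held in all 20 alternatives run. It was 1 of 9 members called higher and 0 called lower, where 4% of all genes tested were called higher and 9.56% lower. The other differences were 0.24 ± 0.09 for PBX3 (95% interval 0.05 to 0.43), 0.23 ± 0.09 for HOXA11 (0.05 to 0.42) and 0.19 ± 0.07 for HOXA10 (0.05 to 0.33). HOXA9 (-0.09 ± 0.08, interval -0.25 to 0.07), HOXA7 (-0.73 ± 0.34, interval -1.47 to 0.01), HOXA3 (-0.29 ± 0.34), HOXA5 (-0.35 ± 0.34) and HOXA6 (0.13 ± 0.35) did not pass the test either, and the width of these intervals leaves differences in both directions possible for HOXA3, HOXA5 and HOXA6.

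This comparison depended on FL early replicate 4. Without it 5 of 9 members were called, with MEIS1 at 0.65, PBX3 at 0.34, HOXA11 at 0.32 and HOXA10 at 0.26 higher in FGF2 early cells and HOXA7 at -1.01 lower. The adjusted p values of the 4 genes gained were 0.00442 for PBX3, 0.00583 for HOXA11, 0.0039 for HOXA10 and 0.00936 for HOXA7. The same 5 were called when FL early replicates 1 and 4 were both left out. The values of the other 4 without replicate 4 were -0.58 for HOXA3, -0.62 for HOXA5, -0.18 for HOXA6 and -0.13 for HOXA9, with edgeR adjusted p values of 0.0854 to 0.555. Replicate 4 was the highest of its arm for MEIS1, PBX3, HOXA11 and HOXA10 and the lowest for HOXA7. Leaving it out therefore widens these differences, and the calls gained are not separate support for them. Over all genes, the number called was 3274 without replicate 4 (1214 higher and 2060 lower) and 2137 with it (630 higher and 1507 lower).

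FL early replicate 4 was the lowest of its arm for HOXA3, HOXA5, HOXA6, HOXA7 and HOXA9 and the highest for HOXA10, HOXA11, MEIS1 and PBX3. For HOXA3 it had 3.32 CPM where replicates 1 to 3 had 18.1, 9.36 and 10.2, and for HOXA6 it had 1.64 CPM where they had 8.22, 6.46 and 7.22. It was the lowest of all 14 libraries for both genes and for HOXA5. For HOXA9 it had 76 CPM where replicates 1 to 3 had 90.4, 80.7 and 84.2. For HOXA11 it had 58.1 CPM where replicates 1 to 3 had 44.7, 43.5 and 50.1, a value inside the FGF2 early range of 56.3 to 59.8 CPM. Its PBX3 level of 76.7 CPM and its HOXA10 level of 98.3 CPM also lay inside the FGF2 early ranges of 69.9 to 78.8 and 94 to 100.2 CPM. MEIS1 at 47.4 CPM lay between the other FL early libraries and the FGF2 early range of 51.9 to 58.7 CPM. The sum of the myeloid markers did not set this library apart, with 2275 CPM against 1789, 2258 and 2401 CPM in FL early replicates 1 to 3. FGF2 early libraries summed to 1022 to 1186 CPM. Its B cell markers summed to 55.1 CPM, against 70.6, 74 and 76.2 CPM in FL early replicates 1 to 3. Its endothelial markers summed to 99.3 CPM, against 112, 177 and 174 CPM. Its epithelial sum of 28.4 CPM lay inside their range. Of the 14 myeloid markers 0 were called higher and 6 lower in FGF2 early than in FL early cells, and their part in the differences between the early lines was not tested. The total of FL early replicate 4, 29392774 counts, lay between the lowest and the highest total of the other 3 FL early libraries.

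Summed over HOXA3, HOXA5, HOXA6 and HOXA7, a grouping by cluster position made after the values were seen, the level was 20.1, 29.4, 20.5 and 38.5 CPM in FGF2 early replicates 1 to 4 and 49.3, 36.7, 39.5 and 11.5 CPM in FL early replicates 1 to 4. It was 110.3, 101 and 115 CPM in the acute libraries with drug alone, with FGF2 and with FL, and 46.1, 44.8 and 57.5 CPM in parental cells. The sum was thus lowest in FL early replicate 4 and highest in the acute libraries, and 3 of 4 FL early libraries lay between 36.7 and 49.3 CPM, near the parental range. Summed over HOXA9, HOXA10 and HOXA11, the level was 225, 232, 231 and 244 CPM in FGF2 early cells, 216, 203, 219 and 232 CPM in FL early cells, 321, 323 and 341 CPM in acute cells and 235, 241 and 238 CPM in parental cells. As a share of both sums, HOXA3 to HOXA7 took 8.17% to 13.6% in FGF2 early cells, 4.71% to 18.6% in FL early cells, 23.8% to 25.6% in acute cells and 15.7% to 19.5% in parental cells.

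**Figure D3:**
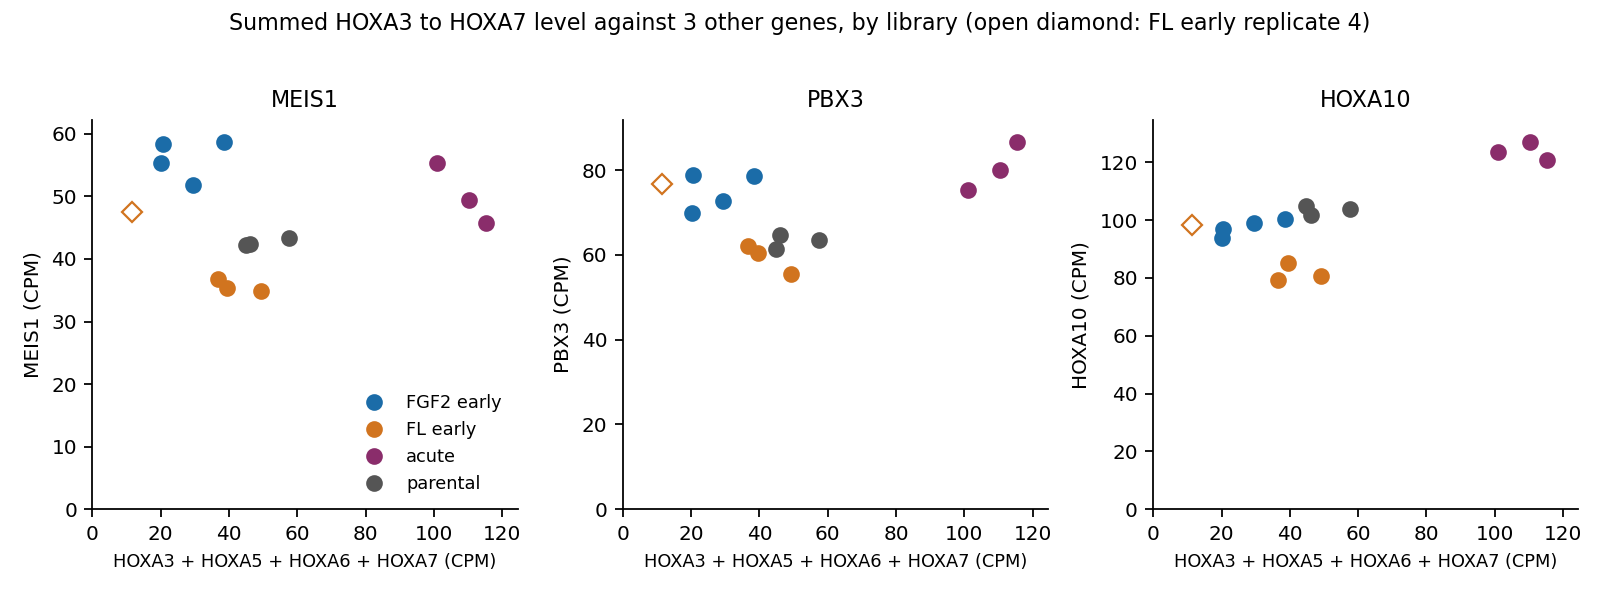
The 14 libraries are plotted by the summed CPM of HOXA3, HOXA5, HOXA6 and HOXA7 (horizontal axis) against the CPM of MEIS1, PBX3 and HOXA10 (vertical axes from 0), coloured by arm, with FL early replicate 4 as an open diamond. That library lies lowest on the horizontal axis, at 11.5 CPM, below the FGF2 early libraries at 20.1 to 38.5 CPM. The 3 other FL early libraries lie at 36.7 to 49.3 CPM, which overlaps the FGF2 early range, and have the lowest MEIS1 levels.

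The comparison of both early lines with acute cells holds the drug dose constant and sets adapted cells beside cells that meet gilteritinib for the first time. Of the 3 acute libraries only 1 had the ligand of a given early line, so adaptation and ligand cannot be told apart here. In FGF2 early cells all 7 HOXA members fell, and MEIS1 and PBX3 did not pass the test. Of all genes tested, 31.1% were called higher and 32.4% lower in this comparison, against 0 and 7 of the 9 members. In FL early cells all 9 members fell, where the background was 30.5% higher and 29.7% lower. The median changes of the 9 were -0.80 in FGF2 early and -0.71 in FL early cells, against -0.042 and -0.022 over all genes tested. Both comparisons use the same 3 acute libraries, so they are not independent of each other. The summed myeloid markers were 1022 to 1186 CPM in FGF2 early cells and 1789 to 2401 CPM in FL early cells, against 1843 to 2099 CPM in acute cells, with 2 called higher and 8 lower in FGF2 early and 5 and 5 in FL early cells. Their part in these changes was not tested.

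HOXA3, an anterior-group HOX gene, had 7.85, 9.29, 5.86 and 10.5 CPM in FGF2 early cells and 18.1, 9.36, 10.2 and 3.32 CPM in FL early cells, against 41.1, 38.3 and 48.2 CPM in acute cells. No early library reached the acute range. The log2 fold changes were -2.34 ± 0.37 in FGF2 early cells (edgeR adjusted p = 7.11e-05) and -2.06 ± 0.36 in FL early cells (edgeR adjusted p = 0.000234). HOXA5 averaged 6.12 ± 2.98 CPM in FGF2 early cells and 7.83 ± 3.29 CPM in FL early cells, against 26.6 ± 1.64 CPM in acute cells, with log2 fold changes of -2.12 ± 0.36 and -1.76 ± 0.36. HOXA6 averaged 6.43 ± 1.76 CPM in FGF2 early cells and 5.88 ± 2.92 CPM in FL early cells, against 19 ± 0.889 CPM in acute cells, with log2 fold changes of -1.56 ± 0.36 and -1.69 ± 0.37. HOXA7 fell by 1.74 on the log2 scale in FGF2 early and by 1.01 in FL early cells, the smaller value having an edgeR adjusted p of 0.0251. That call was lost without the acute library with drug alone (0.0612), without the one with FL (0.0578), with no low-count filter (0.0599), without FL early replicates 1 and 4 together (0.0528) and with the drug-alone library or the one with FL as the only acute sample (0.138 and 0.154).

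HOXA9 had 75.1, 73, 76.9 and 86.1 CPM in FGF2 early cells and 90.4, 80.7, 84.2 and 76 CPM in FL early cells, against 130.2, 125 and 150.0 CPM in acute cells. Its ranges did not overlap, and the log2 fold changes were -0.80 ± 0.08 (edgeR adjusted p = 9.66e-07) and -0.71 ± 0.08 (edgeR adjusted p = 3.61e-06). HOXA10 averaged 97.6 ± 2.76 CPM in FGF2 early cells and 85.8 ± 8.7 CPM in FL early cells, against 124 ± 3.1 CPM in acute cells, with log2 fold changes of -0.34 ± 0.07 and -0.53 ± 0.07. HOXA11 averaged 69.3 ± 5.14 CPM in acute cells, and its log2 fold changes were -0.26 ± 0.09 in FGF2 early and -0.50 ± 0.09 in FL early cells. The FGF2 early call for HOXA11 was lost without FGF2 early replicate 1 or 2 or without the acute library with FGF2 or with FL, at adjusted p values of 0.0604 to 0.106. It was also lost with no low-count filter (0.0566), and with the drug-alone library as the only acute sample the value was -0.12 (edgeR adjusted p = 0.469).

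Against acute cells the TALE partners passed the test in FL early cells and not in FGF2 early cells, and of the direct differences between the early lines given above that of MEIS1 passed and that of PBX3 did not. MEIS1 had a log2 difference of 0.16 ± 0.10 between FGF2 early and acute cells (95% interval -0.06 to 0.38) and of -0.38 ± 0.10 between FL early and acute cells (edgeR adjusted p = 0.00577). PBX3 had -0.10 ± 0.10 between FGF2 early and acute cells (95% interval -0.31 to 0.10) and -0.34 ± 0.10 between FL early and acute cells (edgeR adjusted p = 0.00682). With the acute library with FL as the only acute sample, the MEIS1 difference from FL early cells was -0.23 (edgeR adjusted p = 0.233). With the drug-alone library as the only acute sample, neither MEIS1 (-0.33, edgeR adjusted p = 0.0768) nor PBX3 (-0.31, edgeR adjusted p = 0.0861) passed in FL early cells, and PBX3 missed the threshold when these 2 arms alone were fitted (edgeR adjusted p = 0.0516).

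The comparison of acute with parental cells shows the programme after 48 h of drug. Of the 9 members 7 rose and 0 fell, against 32.3% of all genes called higher and 30.3% lower, and HOXA7 and MEIS1 did not pass the test. In the same libraries the 14 myeloid markers summed to 1843 to 2099 CPM in acute cells and 1061 to 1094 CPM in parental cells, with 9 called higher and 2 lower. PECAM1 was higher by 1.67 ± 0.26 (edgeR adjusted p = 6.13e-05), and PAX5 had a log2 fold change of -0.79 ± 0.11 (edgeR adjusted p = 1.93e-05). The part of these markers in the members' changes was not tested. HOXA3 had 41.1, 38.3 and 48.2 CPM in acute cells, against 11.5, 10.7 and 12.4 CPM in parental cells. All 3 acute libraries were more than 3 times as high as any parental one. The log2 fold change was 1.88 ± 0.40, or 3.68-fold (edgeR adjusted p = 0.000941). HOXA6 averaged 19 ± 0.889 CPM in acute cells and 8.07 ± 1.45 CPM in parental cells, a log2 fold change of 1.23 ± 0.39 (edgeR adjusted p = 0.014), which missed the threshold without parental replicate 2 (0.0537). HOXA5 averaged 26.6 ± 1.64 CPM in acute cells and 13.5 ± 2.0 CPM in parental cells, a log2 fold change of 0.98 ± 0.38 (edgeR adjusted p = 0.0388), a call lost when any 1 of the 6 libraries was left out (0.0531 to 0.109). It was also lost with no low-count filter (edgeR adjusted p = 0.0863).

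HOXA9 had 130.2, 125 and 150.0 CPM in acute cells, against 87.6, 89.6 and 85.4 CPM in parental cells. The library with FL was highest and all 3 lay above the parental range. The log2 fold change was 0.63 ± 0.09 (edgeR adjusted p = 2.15e-05). HOXA11 rose by 0.56 ± 0.10 (edgeR adjusted p = 0.000199), PBX3 by 0.35 ± 0.10 (edgeR adjusted p = 0.00832) and HOXA10 by 0.26 ± 0.08 (edgeR adjusted p = 0.00808). HOXA7 had a log2 difference of 0.34 ± 0.39 (95% interval -0.48 to 1.17) and MEIS1 of 0.23 ± 0.11 (95% interval -0.00 to 0.47). MEIS1 was called in 2 of 17 alternatives, with upper quartile factors (0.34, edgeR adjusted p = 0.0142) and with total counts alone (0.29, edgeR adjusted p = 0.0303). The median of the 9 was 0.56, against 0.072 over all genes tested. The 3 acute libraries also had the highest share of ribosomal protein counts, as given above. With TMM factors computed without ribosomal protein and mitochondrially encoded genes, the same 7 members were called, with HOXA3 at 1.88 and HOXA9 at 0.62. The calls rest on 3 acute cultures with different additions, and with the drug-alone library as the only acute sample 3 members (HOXA3, HOXA9 and HOXA11) were called.

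Within the acute arm each condition had 1 library, so the values have no replicate check. HOXA9 had 125 CPM with FGF2 and 150.0 CPM with FL, against 130.2 CPM with drug alone. MEIS1 had 55.3 CPM with FGF2 and 45.8 CPM with FL, against 49.4 CPM with drug alone. MEIS1 was thus highest with FGF2 and lowest with FL. PBX3 had 75.3 CPM with FGF2 and 86.6 CPM with FL, against 80.1 CPM with drug alone, the opposite order.

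HOXA9 and HOXA10 share a readthrough transcript unit, identifier ENSG00000257184, annotated over both genes on the same strand. It was low, at 0.51 to 0.844 CPM in FGF2 early cells, 0.558 to 1.03 CPM in FL early cells, 2.04 to 3.02 CPM in acute cells and 0.611 to 0.997 CPM in parental cells. Adding its counts to HOXA9 or to HOXA10 changed no call of either gene.

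The rest of the cluster and the other HOX genes set the members in context. HOXA2, an anterior gene next to HOXA3, fell in FGF2 early against parental cells (log2 fold change -2.11 ± 0.42, edgeR adjusted p = 0.00208), with 0.64, 0.371, 0.276 and 0.48 CPM in FGF2 early cells, against 1.64, 2.62 and 1.55 CPM in parental cells. HOXA2 in FL early replicate 4 was 0.274 CPM, where replicates 1 to 3 had 1.0, 1.26 and 1.1. HOXA13, the most posterior gene, had 43.2 to 49.7 CPM in FGF2 early cells, 51.5 to 56.4 CPM in FL early cells and 28.3 to 30.4 CPM in acute cells, against 36.8 to 37.4 CPM in parental cells. Its log2 fold changes against parental cells were 0.34 ± 0.07 in FGF2 early cells (edgeR adjusted p = 0.00192), 0.53 ± 0.07 in FL early cells (edgeR adjusted p = 0.000176) and -0.33 ± 0.07 in acute cells (edgeR adjusted p = 0.00089). HOXA4 rose in acute against parental cells by 1.19 ± 0.31 (edgeR adjusted p = 0.00402). Of 28 HOXB, HOXC and HOXD genes, 24 stayed under 1 CPM in every library and 5 were tested. HOXC4, HOXC5, HOXC6 and HOXC9 were the 4 called higher in acute than in parental cells, with 0 called lower. Of all genes tested 32.3% were called higher and 30.3% lower. A gene high in the acute arm alone can pass the low-count filter, so this count is not read as a result about these genes. HOXC4 had 28.5, 18.2 and 29.1 CPM in acute cells and 8.23, 4.8 and 5.51 CPM in parental cells.

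**Figure D4:**
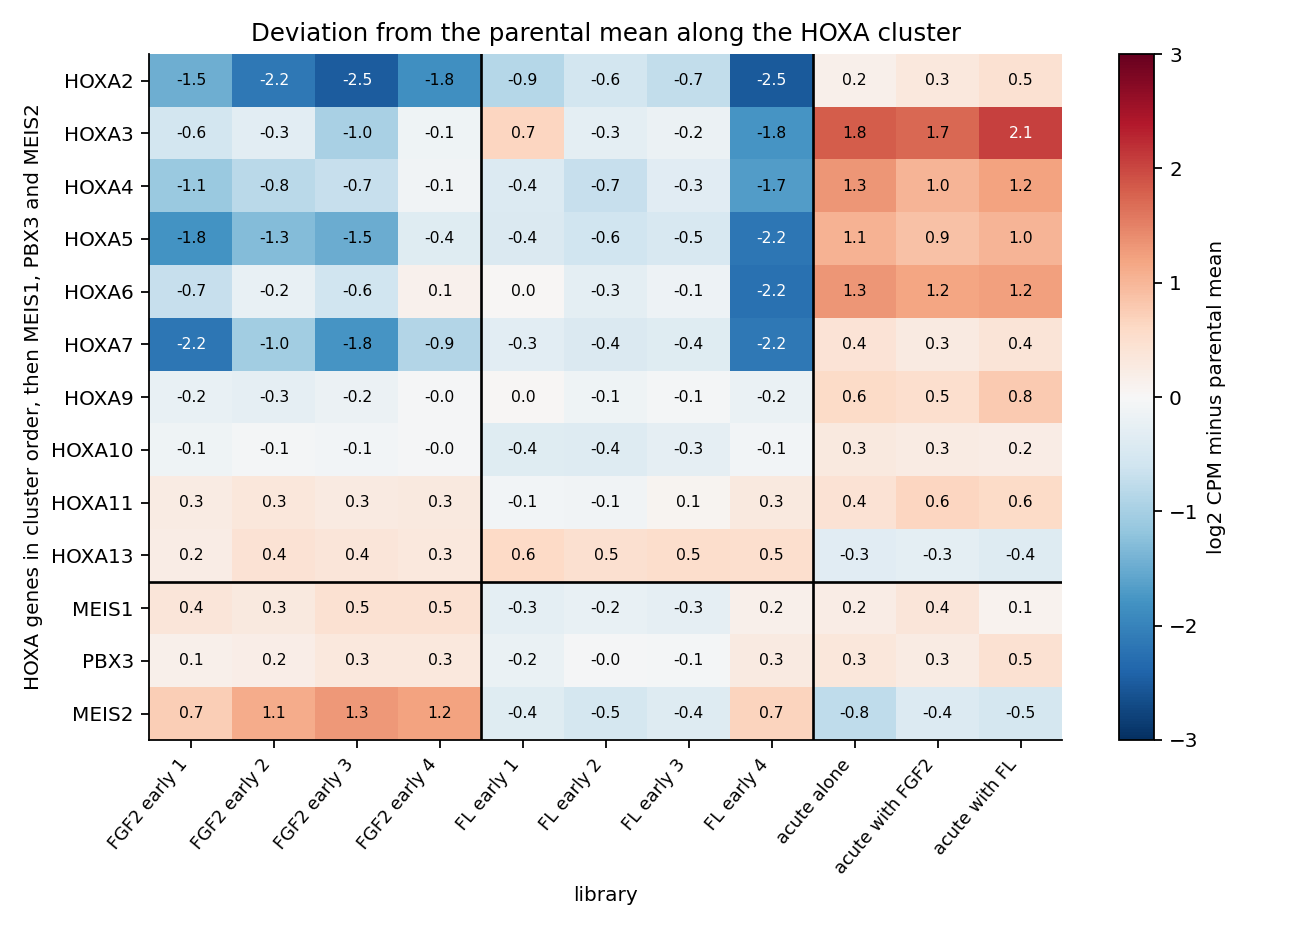
Rows are HOXA genes in their order along the cluster, then MEIS1, PBX3 and MEIS2, and columns are the 11 libraries that are not parental. Colour and printed values give log2 CPM minus the mean of the parental libraries, and HOXA2 to HOXA7 all lie below 0 in FGF2 early replicates 1, 2 and 3 and in FL early replicates 2, 3 and 4, and above 0 in the 3 acute libraries.

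Among the other 11 TALE homeobox genes, of which 10 were tested, MEIS2 was the 1 called higher in FGF2 early than in parental cells, with 0 called lower. Over all genes tested 13.3% were called higher and 17.1% lower, so these counts lie near or below the background. MEIS2 is given here for its values. MEIS2 had 68.6, 88.8, 100.1 and 95.1 CPM in FGF2 early cells and 31.9, 28.2, 31.2 and 65 CPM in FL early cells, against 44.5, 40.4 and 37.9 CPM in parental cells. FL early replicate 4 again lay nearer to the FGF2 early libraries than to its own arm. The log2 fold changes were 1.11 ± 0.24 in FGF2 early against parental cells (edgeR adjusted p = 0.0040) and 1.17 ± 0.22 in FGF2 early against FL early cells (edgeR adjusted p = 0.00378). IRX3 was the other TALE gene called between the early lines, at -0.69 ± 0.15 (edgeR adjusted p = 0.00916). Between these lines 4% of all genes tested were called higher and 9.56% lower. In acute against parental cells TGIF1 and PBX2 were called higher and PKNOX1 and TGIF2 lower, where 32.3% of all genes tested were called higher and 30.3% lower.

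Of 23 genes of the fusion complex and its cofactors, 8 were called higher and 4 lower in FGF2 early against parental cells, and 3 higher and 3 lower in FL early against parental cells. Over all genes tested the shares were 13.3% higher and 17.1% lower in FGF2 early cells and 10.9% and 9.76% in FL early cells, so the FL early counts lie near the background. KMT2A itself, where the counts do not separate the fusion from the normal transcript, was called higher in FGF2 early cells (0.31 ± 0.09, edgeR adjusted p = 0.0189), and its difference in FL early cells was -0.04 ± 0.09. AFF1, a subunit of the elongation complex that fusions recruit, was higher in FGF2 early than in parental cells by 0.96 ± 0.09 (edgeR adjusted p = 1.39e-05). Among the 4 called lower there were PSIP1 (-0.35 ± 0.06, edgeR adjusted p = 0.000819) and LEO1 (-0.28 ± 0.06, edgeR adjusted p = 0.00405). PSIP1 and LEO1 were also called lower in FL early than in parental cells (-0.27 ± 0.06 and -0.24 ± 0.06). In acute against parental cells 5 of the 23 were called higher and 10 lower, where 32.3% and 30.3% of all genes tested were, and the median log2 change of the list was -0.10, against 0.072 over all genes tested. DOT1L, the H3K79 methyltransferase that fusion-driven HOXA expression depends on, was among the lower, with 87.9, 117 and 115 CPM in acute cells and 262, 265 and 255 CPM in parental cells. Its log2 fold change was -1.29 ± 0.10 (edgeR adjusted p = 7.19e-08). The part of DOT1L and of the other genes of this list in the members' changes was not tested.

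Polycomb proteins repress HOX clusters. The Polycomb list used here also held KDM6A and KDM6B, which are H3K27 demethylases and not Polycomb proteins. Of 19 genes tested from this list, 5 were called higher and 11 lower in acute against parental cells. Of all genes tested, 32.3% were called higher and 30.3% lower. The median log2 change of the list was -0.47, against 0.072 over all genes tested. EZH2, the main methyltransferase of the complex, had 18.6, 20 and 19.7 CPM in acute cells and 87.6, 84.5 and 83.4 CPM in parental cells, a log2 fold change of -2.13 ± 0.09 (edgeR adjusted p = 1.34e-10). Its paralogue EZH1 had 138, 106 and 106 CPM in acute cells and 30.2, 30 and 29 CPM in parental cells, a log2 fold change of 1.97 ± 0.12 (edgeR adjusted p = 6.32e-09). In FGF2 early against parental cells 3 genes of this list were higher and 4 lower, and in FL early against parental cells 3 and 3. The demethylase gene KDM6B was higher in both. The shares of all genes tested were 13.3% higher and 17.1% lower in FGF2 early cells and 10.9% and 9.76% in FL early cells. Whether the genes of this list have a part in the members' changes was not tested.

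Of 19 other KMT2A fusion targets tested, 4 were called higher and 3 lower in FGF2 early against parental cells, 2 higher and 3 lower in FL early against parental cells, and 4 higher and 5 lower in acute against parental cells, with medians of 0.20, -0.04 and 0.07 on the log2 scale. Of 17 genes tested from a list regulated by HOXA9 with MEIS1, the counts were 4 and 3, 4 and 5, and 4 and 7 in those comparisons, with medians of 0.01, -0.04 and -0.18. Over all genes tested 13.3% were called higher and 17.1% lower in FGF2 early cells, 10.9% and 9.76% in FL early cells and 32.3% and 30.3% in acute cells, each against parental cells, and several of these counts lie near those shares. The medians over all genes tested were those given with the members above. MYB, a HOXA9 target needed for self-renewal, fell in acute against parental cells (log2 fold change -0.99 ± 0.08, edgeR adjusted p = 9.65e-08), as did the anti-apoptotic gene BCL2 (-1.16 ± 0.10, edgeR adjusted p = 2.57e-07). FLT3, also a HOXA9 and MEIS1 target and the kinase that gilteritinib inhibits, rose by 0.92 ± 0.10 (edgeR adjusted p = 2.46e-06). PIM1, a kinase gene also driven by FLT3 signalling, fell in both early lines against parental cells. Its log2 fold changes were -4.73 ± 0.29 in FGF2 early cells (edgeR adjusted p = 5.62e-07) and -3.09 ± 0.27 in FL early cells (edgeR adjusted p = 1.01e-05). Of the same 17 genes, 3 were called higher and 3 lower in FGF2 early than in FL early cells. Over all genes tested, 4% were called higher and 9.56% lower. CDK6 and SOX4 were among the higher, by 0.52 ± 0.10 and 0.48 ± 0.10. PIM1 (-1.64 ± 0.28) and CYBB (-2.83 ± 0.64) were among the lower.

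The genes whose profile lay nearest to each of 4 members were taken as those with the smallest root mean square difference of log2 CPM deviations from the parental mean, over the 11 other libraries and 9218 genes with a mean log2 CPM of at least 3. They were DUSP3, ABHD15 and IGBP1 for HOXA9 (0.090 to 0.10), R3HCC1, DYNC1H1 and C1orf109 for HOXA10 (0.099 to 0.11), VLDLR, REV3L and PRKAB2 for MEIS1 (0.12 to 0.13) and SAFB2, NARF and RPS27L for PBX3 (0.085 to 0.11). No member was among the nearest of another.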

How the data were processed

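Poly(A) RNA of 14 MOLM14 cultures was sequenced from stranded TruSeq libraries, per the labels' protocols. The authors deposited 1 table of estimated counts per gene, made with kallisto on GRCh37 per the submitters' processing notes. How transcripts were summed to genes and the strand setting are not given in the sources used here. Estimated counts were rounded to whole numbers, and 15756 of 39293 genes passed filterByExpr (minimum count 10, minimum total 15). Names came from GENCODE 29 tables for 85.2% of identifiers, and identifiers without a name held 4.31% to 5.13% of the counts per library. Depth was 25723575 to 33075041 counts per library.

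The 4 arms were fitted together with edgeR 4.0.16 (TMM, robust quasi-likelihood F-test), p-values were adjusted over all 15756 genes by Benjamini-Hochberg, and genes with an adjusted p under 0.05 were called. Standard errors are the size of the log2 fold change divided by the square root of F. The common biological coefficient of variation was 0.178. No 2 replicates of an arm agreed within sampling noise (chi-square per degree of freedom 5.40 to 56.0). The procedure was tested on simulated data. Alternatives used DESeq2 1.42.0, limma-voom (limma 3.58.1), other scalings, no filter, left-out libraries and 2-arm fits in R 4.3.3.

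The members and gene lists were chosen with earlier results of these data known. Every member is named, with up to 4 genes of smallest adjusted p per list and comparison, and the 3 genes nearest in profile to HOXA9, HOXA10, MEIS1 and PBX3. Not every gene this rule allows is described, ELL2 among those left out. The choice among them was made after their values were seen, as was the naming of the marker genes and of KMT2A in FGF2 early and FL early against parental cells. Noncoding RNAs of the HOXA cluster were not analysed here.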

Additional observations from a re-analysis of the deposited data

Results flagged for a closer look

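FL early replicate 4 stood alone at the low end of its arm for HOXA5 (2.94 CPM, the others 8.83 to 9.93) and HOXA7 (3.59 CPM, the others 12 to 13), and at the high end for MEIS1 (47.4 CPM, the others 34.9 to 36.7). In each case its gap to the nearest library exceeded 0.829 of the arm's range, the 95% limit of Dixon's test for 4 samples. Of 18 sets of 4 libraries examined 3 exceeded it, all 3 in this library. The limit flags about 1 in 20 independent sets by chance, but these sets are members measured in the same flasks. They are not independent, so 3 of 18 cannot be set against that rate.

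MEIS1 differed in how it stood against parental cells, at 0.39 ± 0.10 in FGF2 early cells and -0.14 ± 0.10 in FL early cells on the log2 scale. The difference between the 2 values, tested in the joint fit, was 0.54 ± 0.10 (edgeR adjusted p = 0.00261). Because both values use the same parental libraries, this is the direct comparison of the early lines given above and not a second test.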

How the results depend on the processing

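The number of members called stayed within 1.5 times its value under most settings. Between FL early and parental cells it was 0 with only these 2 arms fitted, against 1. Between acute and parental cells it was 3 with the drug-alone library as the only acute sample, against 7. Between FGF2 early and FL early cells it was 3 with total counts alone, 2 with DESeq2 and 5 without FL early replicates 1 and 4 together, against 1. With single libraries left out it ran from 2 to 3 for FGF2 early against parental cells, from 0 to 2 for FL early against parental cells, from 1 to 5 for FGF2 early against FL early cells, from 6 to 7 and from 8 to 9 for FGF2 early and FL early against acute cells, and from 5 to 6 for acute against parental cells. An arm left with 1 sample is assumed to vary like the others.

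Of 1017 log2 fold changes recomputed for the 54 combinations of member and comparison, 940 kept their direction and call, 42 lost and 18 gained a call, and 17 turned sign, none of which was called either way. Between FL early and parental cells, PBX3 became -0.0037 with RLE factors, -0.0062 with upper quartile factors, -0.0037 with DESeq2, -0.036 without FL early replicates 1 and 4 together and -0.090 to -0.011 without FL early replicate 4 or parental replicate 2. In that comparison HOXA11 became -0.033 without FL early replicate 4 and -0.0036 without both, and HOXA3 became 0.12 without replicate 4 and -0.59 without replicate 1, the ends of its range. PBX3 reached 0.082 without replicate 1. PBX3 became 0.0083 between FGF2 early cells and the acute library with FGF2 alone. Between FGF2 early and FL early cells HOXA3 became 0.14 without FL early replicate 1 and ran from -0.58 to that value with single libraries left out, and HOXA6 became -0.056 without FGF2 early replicate 4, -0.18 to 0.33 with single FL early libraries left out, lowest without replicate 4, and -0.086 without FL early replicates 1 and 4. The cause was not tested.

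With a replicate block the members called were 5 between FGF2 early and parental cells (HOXA3 at -0.60 joined), 1 between FL early and parental cells and 1 between FGF2 early and FL early cells. Under the replicate block HOXA3 (0.073), HOXA11 (-0.024) and PBX3 (-0.080) turned sign between FL early and parental cells. Same-numbered libraries did not deviate together (correlations -0.094 to 0.066), so the numbers do not pair them. Over all genes the block gave 1805 calls, against 3259, for FL early and parental cells and 748, against 2137, for FGF2 early and FL early cells. The count between the early lines ranged from 1351 to 3498 with libraries left out, and FL early against parental cells gave 1651 and 1512 without parental replicates 1 and 2.

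Upper quartile scaling moved the median of all genes by -0.12, -0.13 and 0.11 in FGF2 early against acute, FL early against acute and acute against parental cells. Total counts alone moved the share of calls that were higher to 57.2%, against 43.7%, for FGF2 early and parental cells and to 44.5%, against 29.5%, for FGF2 early and FL early cells. HOXA3, HOXA5, HOXA6 and HOXA7 had the lowest mean counts of the members and the widest intervals, and the part of depth in that width was not tested.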
